A study of Talpa occidentalis with 6 samples.

Results

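The gene annotation of the Iberian mole (Talpa occidentalis) deposited with this series holds 90 gene symbols that are annotated many times over on separate scaffolds, mostly as models with 1 or 2 exons. A symbol is the name of a model without its copy number. A symbol was kept if it had at least 5 models on at least 5 scaffolds, if at least 1 model had 3 or more exons, and if at least 50% of its models had 1 or 2 exons. These 90 symbols are 0.499% of the 18052 symbols in the annotation and 39.8% of the 226 symbols with 5 or more models. They hold 1399 of the 23336 models (6%), on 514 of the 2074 annotated scaffolds. Models with 1 or 2 exons are called few-exon models here, and models with 3 or more are called multi-exon models.

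The series profiled open chromatin by ATAC-seq, a method in which a transposase cuts and tags open DNA, in wild-type moles on postnatal day 7. The 6 samples form 3 groups of 2, taken from the testis of males and from the ovarian and the testicular portions of the female ovotestis. None of the values given here belongs to a sample. The chromatin segmentations lie on the assembly talOcc4 and the annotation on talOcc3, so accessibility at the copies was not analysed here.

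Retrocopies arise when a messenger RNA is copied back into DNA by the enzymes of LINE elements and inserted elsewhere in the genome. Such a copy carries the exons joined together, without introns and usually without its own promoter, and most decay as processed pseudogenes while a few are used as genes. In mammals, genes with abundant and widely expressed messenger RNAs, such as those for ribosomal proteins, are known for having many of them. The symbols were chosen by exon number and by spread over scaffolds, so these 2 features are the choice itself and not findings. Poly(A) tails and duplicated insertion sites, which mark retroposition, were not analysed here, and the models are therefore called copies without a statement on their origin.

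Of the 1399 models, 1200 (85.8%) were few-exon models, beside 33.4% of all models, a share that follows from the choice. Among them 965 had 1 exon and 235 had 2, and 199 models were multi-exon. A symbol had between 5 and 95 models, with a median of 9.5, on 5 to 80 scaffolds. Of the 90 symbols, 61 had at most 12 models, whereas 7 had more than 40 and held 462 models together. In 56 symbols (62.2%) exactly 1 model was multi-exon, in 15 there were 2, and in 3 there were at least 10.

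Both small and large symbols lay at the limits of the choice. COX7B, HMGN2 and HNRNPA3 were among the 9 symbols just inside with 5 models. CYP2C18 and NACA (6 models each) and OR7A10 (41 models) were among the 6 on only 5 scaffolds. IGSF3 and SUMO2 were inside with exactly 50% few-exon models, and ATP5L, COX1 and COX7B were among 15 symbols with no model of more than 3 exons. Just outside, ARPC3, ATP5J and BTF3 were among 34 symbols with 4 models on 4 scaffolds, and ARHGAP11A, ATP6V1G1 and CD300LF among 15 with enough models on 4 scaffolds. CAPN9 and SPAM1 each had 44.4% few-exon models. Another 26 symbols had no model of more than 2 exons, among them the mitochondrial genes COX2 with 40 models, ATP6 with 34 and COX3 with 32, each on as many scaffolds as models.

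The symbols are described in 2 sets. A first set of 60 symbols belongs to families of broadly expressed genes, namely ribosomal proteins, translation factors, chaperones, histones and HMG proteins, splicing and nuclear transport proteins, the glycolytic, respiratory and ubiquitin systems, cytoskeleton, and iron and annexin proteins. These are called the housekeeping families, and the mitochondrial gene COX1 was left out of them. The other 30 symbols are zinc finger, chemosensory, TRIM and uncharacterised genes and a few others, including DBI, DEK, FDPS and RSL24D1. This grouping was made after the values were seen, and it is used for description. The housekeeping families held 610 models with a median of 8 per symbol, and the other symbols held 789 with a median of 17.

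**Figure D1:**
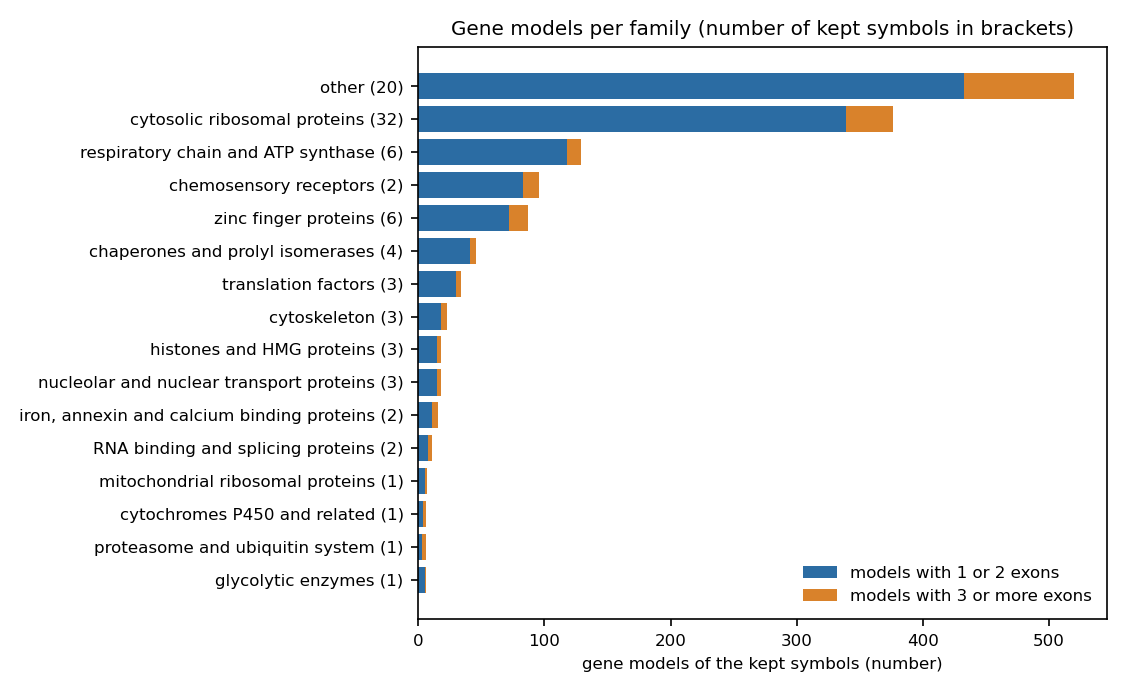
Number of gene models (horizontal axis) of the kept symbols in each gene family (vertical axis, number of kept symbols in brackets), split into models with 1 or 2 exons (blue) and with 3 or more exons (orange). Cytosolic ribosomal proteins are the largest named family with 376 models, of which 339 are few-exon models.

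Cytosolic ribosomal proteins, the protein part of the ribosome, were the largest named family. Of 82 ribosomal protein symbols in the annotation 32 were kept (39%), against 90 of 18052 over all symbols, and they held 376 models, 339 of them few-exon. The large subunit gave 20 of its 51 symbols with 255 models and the small subunit 12 of its 31 with 121 models. The median was 11 models per kept large-subunit symbol and 9 per kept small-subunit symbol. In 27 of the 32 exactly 1 model was multi-exon. Among the ribosomal symbols left out, 11 had 1 model only, RPL8 and RPS3 among them, and 17 had no multi-exon model. RPS27, with 12 models on 10 scaffolds, was among these 17. Another part of the rule left out 7 ribosomal symbols with 5 or more models, RPL11 and RPL13A among them. Over the 32 kept symbols, log2 number of models and log2 length of the longest multi-exon model had a Pearson correlation of 0.138. Their Spearman correlation was 0.0989, and both are given as a description.

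RPL21, a large-subunit protein, had 33 models on 24 scaffolds, the most of any housekeeping symbol. Its multi-exon model lies on scaffold 6 at 49666879-49668909 of talOcc3, on the minus strand, with 5 exons and 444 bp of exon sequence. All the 32 other models had 1 exon, with a length of 177 to 484 bp and a median of 479 bp. Lengths of 25 of them were at least 90% of the longest model. The best alignment score was not that of the multi-exon model (708) but of a 1-exon model of 480 bp on scaffold 16 at 49088933-49089412 (760). The score is the deposited score of each model against the sequence it was named from, and, apart from repeated IDs, copies are numbered by falling score, so that a copy number carries no order in time.

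RPL9, also of the large subunit, had 31 models on 22 scaffolds. Its best model has 6 exons and 579 bp on scaffold 10 at 43398204-43400837 with a score of 881. A second model with 6 exons, RPL9_copy28, is 831 bp long and scored 409. The 29 few-exon models measured 252 to 577 bp with a median of 575 bp, and 22 of 29 covered at least 90% of the widest interval of a multi-exon model. Because the longest model was RPL9_copy28, none of the 29 reached 90% of the longest model, and the median was 69.2%.

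RPL17 had 21 models on 15 scaffolds, with 6 exons and 555 bp in its multi-exon model on scaffold 3 at 7099501-7102274. Its 20 other models all had 1 exon, with a median of 558 bp and a range of 201 to 566 bp. RPS24, a small-subunit protein, also had 21 models, and its 4-exon model of 396 bp (score 600) came after 1-exon models of 432 bp with scores of 646 and 637. RPS14 had 16 models on 14 scaffolds, 13 of its 15 few-exon models were at least 90% of the longest, and their median was 470 bp. RPL26 and RPL7A had 16 models each. The few-exon models of RPL26 measured 249 to 453 bp against 831 bp in its 4-exon model, and those of RPL7A measured 204 to 806 bp against 576 bp in its 6-exon model. RPS24, RPL26 and RPL7A were named after their values were seen.

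RPS29 and RPS15A, the latter named after its values were seen, had copies of nearly equal length. RPS29 had 8 models on 8 scaffolds. All 7 of its 1-exon models were 177 bp long, and its 3-exon model was 168 bp, so that the few-exon median was 100% of the longest model. RPS15A had a 4-exon model of 393 bp on scaffold 17 at 43230938-43235898 with a score of 646. Its 8 copies, on 8 other scaffolds, each had 1 exon of 387 to 391 bp and scored 572 to 641. RPS23, with 6 models, had a few-exon median of 99.8% of its longest model, and RPS14 one of 99.4%. RPS4X, named after its values were seen, had 5 copies of 798 to 800 bp against 1059 bp in 8 exons.

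**Figure D2:**
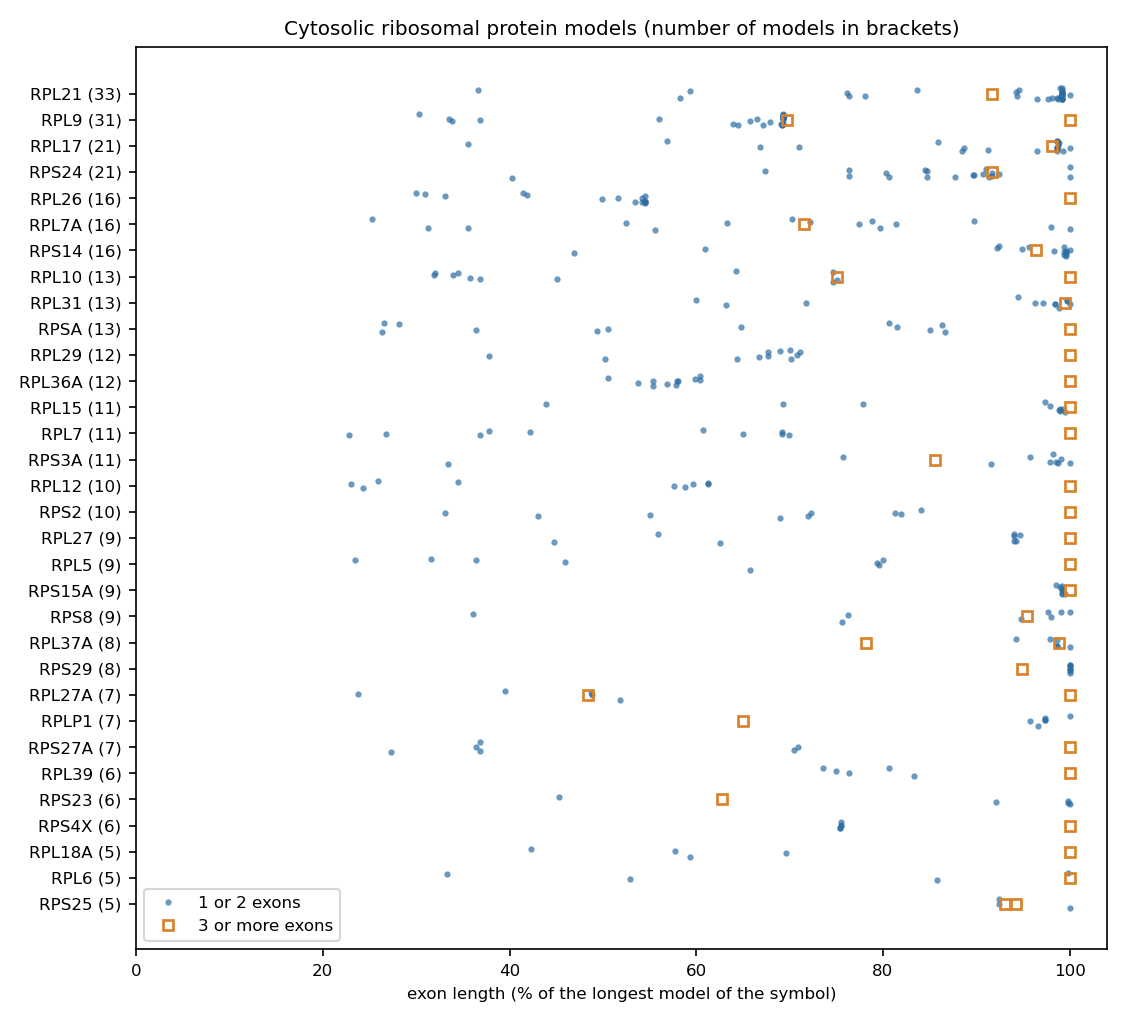
Exon length of each model of the 32 kept ribosomal protein symbols as a percentage of the longest model of the symbol (horizontal axis). Each row is 1 symbol with its number of models in brackets, blue points are models with 1 or 2 exons (spread vertically for visibility) and orange squares are models with 3 or more. RPL21, RPL17 and RPS15A crowd near 100%, while the copies of RPL9 and RPL26 line up below it because a multi-exon model of the symbol is longer.

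Translation factors gave 3 of 72 annotated symbols. EEF1A1, which delivers aminoacyl-tRNA to the ribosome, had 20 models on 13 scaffolds. Its model with 7 exons lies on scaffold 7 at 16776084-16778196, and a model with 2 exons on scaffold 15 at 17027988-17031557 has the same length of 1389 bp, with scores of 2111 and 2116. The median of its 18 few-exon models was 590.5 bp (42.5% of the longest), and 1 of the 18 reached 90%. TPT1, the translationally controlled tumour protein, had 8 models, and its 7-exon model of 498 bp (score 716) came after 4 few-exon models of 517 to 538 bp (scores 753 to 843). NACA, a subunit of the nascent polypeptide-associated complex, had 6 models on 5 scaffolds. Its 7-exon model measured 2751 bp, and the few-exon median was 13.6% of that. No few-exon model shared the sequence that this model was named from, so coverage could not be measured. The 7-exon model scored 0.417 per aligned base, against a few-exon median of 1.16.

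The mitochondrial ribosome, with 69 annotated symbols, gave MRPL42 alone. MRPL42 had 7 models on 6 scaffolds. Its 5-exon model of 450 bp scored 473, whereas 4 copies of 1 exon and 447 to 451 bp scored 553 to 605. The few-exon median was 99.8% of the longest model. The share of symbols kept was thus 1.45% for the mitochondrial ribosome and 39% for the cytosolic ribosome.

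Chaperones and prolyl isomerases gave 4 of 116 symbols. PPIA (cyclophilin A, a prolyl isomerase) had 20 models on 17 scaffolds. The model with the best score has 6 exons and 1101 bp, and all 18 few-exon models had 1 exon, of 267 to 512 bp. HSPD1, the chaperonin of the mitochondrial matrix, had a model of 11 exons and 1722 bp on scaffold 23 at 8896784-8905000 with a score of 2660. Of its 9 few-exon models 5 were 1703 to 1720 bp long, each with 1 exon and a score of 2423 to 2547. The remaining 4 measured 1190, 1043, 591 and 363 bp. DNAJA1, a cochaperone, had 8 models, the longest of which was a 1-exon model of 1028 bp beside a 7-exon model of 942 bp. HSPA8, the constitutive heat shock cognate chaperone, was named after its values were seen. Its model of 10 exons measured 2145 bp, and its 7 copies of 1 exon measured only 234 to 633 bp, with a median of 16.8%.

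**Figure D3:**
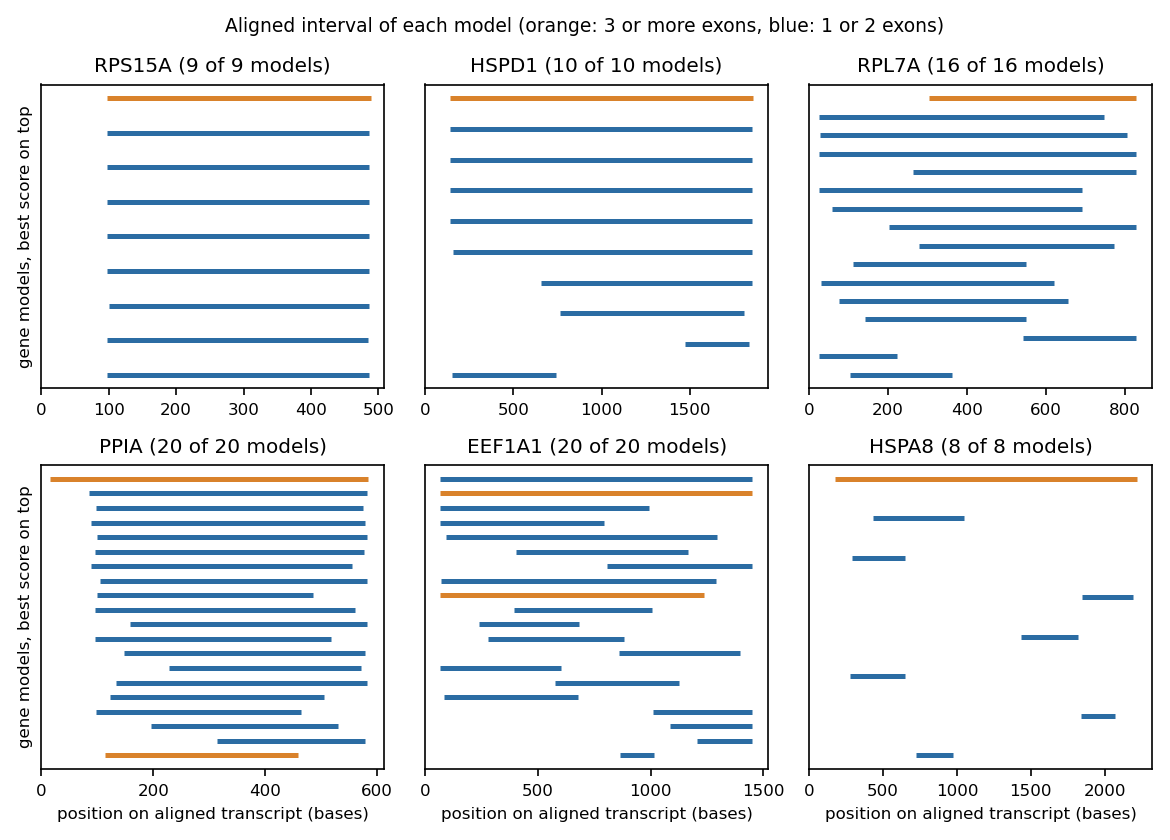
Interval of the named transcript that each model aligns to (horizontal axis, bases from the start of that transcript) for 6 symbols, with 1 line per model sorted by score (vertical axis), orange for models with 3 or more exons and blue for models with 1 or 2. All models of each of these symbols align to the same transcript. The 8 copies of RPS15A span the whole interval, HSPD1 has 5 copies that do so, and the 7 copies of HSPA8 are short pieces at scattered places.

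Chromatin, RNA and nuclear transport proteins gave smaller symbols. HMGB1, a DNA-bending chromatin protein, had 7 models on 6 scaffolds. A 1-exon model of 645 bp had its best score (833), ahead of a 4-exon model of 612 bp (788), and all 6 few-exon models measured 595 to 645 bp. H3F3A, a replication-independent histone H3, had 6 models, with 3 exons and 411 bp in the best and 246 to 414 bp in the copies. HMGN2, a nucleosome-binding protein, had copies of 234 to 291 bp against 867 bp in a 7-exon model. RAN, the GTPase of nuclear transport, had 7 models on 7 scaffolds, and its 3-exon model of 387 bp was shorter than copies of 639, 519, 478 and 435 bp. SET and NPM1, histone-binding proteins of the nucleus and nucleolus, had 6 and 5 models. NPM1 had an 11-exon model of 930 bp (score 676) and few-exon models of 872 and 870 bp with scores of 687 and 683. SNRPE, a core protein of spliceosomal particles, had 1-exon models of 276 bp above its 4-exon model of 231 bp, and HNRNPA3, an RNA-binding protein, had a 10-exon model of 1119 bp and a 1-exon copy of 1122 bp. SUMO2, a ubiquitin-like modifier, had 3 copies of 407 to 448 bp, and its multi-exon models measured 285, 249 and 227 bp.

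In energy metabolism, LDHA (lactate dehydrogenase A) was the only kept glycolytic symbol of 29, with 6 models on 6 scaffolds, 8 exons and 1077 bp in the best, and copies of 414 to 918 bp. The respiratory chain and ATP synthase gave 6 of 101 symbols. COX20, an assembly factor of cytochrome c oxidase, had 25 models on 19 scaffolds, of which 5 were multi-exon. Its few-exon models had a median of 198 bp, the length of 11 of them, and the 7-exon model measured 795 bp. ATP5L, a subunit of ATP synthase, had 8 models, with copies of 265 to 334 bp beside a 3-exon model of 312 bp, and COX7B had 4 copies of 225 to 240 bp beside a 3-exon model of 243 bp.

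Cytoskeletal proteins gave 3 of 160 symbols. TUBA1B and TUBA1A, alpha-tubulins of near-identical sequence, had 10 and 7 models, and their multi-exon models lie close together on scaffold 34. A copy could have been named from either, so the split between them is uncertain. The few-exon median was 33.2% of the longest model in TUBA1B and 45.2% in TUBA1A, although TUBA1A_copy2 had 1 exon of 1347 bp and a score of 1977. ACTB, cytoplasmic beta-actin, had 6 models. Its best score (1662) was that of a 1-exon model of 1149 bp on scaffold 18 at 7294106-7295254, beside 1659 for the 5-exon model of 1284 bp on scaffold 5. In the iron and annexin family, FTH1, the heavy chain of ferritin, had 10 models on 10 scaffolds. Its 4 best scores (766 to 842) were those of 1-exon models of 629 to 677 bp, ahead of its 4-exon model of 726 bp (747). ANXA2, a membrane-binding annexin, had 12 exons and 1017 bp in its best model and few-exon models of 441 to 882 bp.

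No symbol was kept from the 72 symbols of 14-3-3 proteins and phosphatases, the 154 of small GTPases and their partners, the 65 of redox and detoxification, or the 37 of immune receptors. RAN was counted with nuclear transport.

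Among the other 30 symbols, the most numerous copies were of uncharacterised or mitochondrial genes. LOC107986724 had 95 models on 69 scaffolds, of which 92 were few-exon with 255 to 3029 bp, and its longest model had 2 exons. COX1, a mitochondrially encoded subunit of cytochrome c oxidase whose gene has no introns, had 80 models on 80 scaffolds. Its only multi-exon model, with 3 exons, lies on scaffold 5 at 10805110-10808406, and the 79 others had 1 exon of 183 to 1519 bp. LOC105379528 had 66 models with 153 to 825 bp in the few-exon ones. LOC107983994 had 33 models and LOC107986994 had 28.

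TRIM38, of the TRIM family of ubiquitin ligases, had 63 models on 18 scaffolds, of which 27 were multi-exon with up to 7 exons, more than in any other kept symbol. BMS1P20, named after a human pseudogene, had 62 models, and 40 of its 50 few-exon models had 2 exons. PTCHD3, a patched-domain protein, had 28 models of which 8 were multi-exon. The olfactory receptors OR14A16 and OR7A10 had 55 and 41 models. Olfactory receptor genes have their coding sequence in 1 exon by nature and lie in clusters, so few exons do not mark a copy as having lost introns. In OR7A10 the 41 models lay on 5 scaffolds, and 0 of its 30 few-exon models were without another OR7A10 model within 1 Mb. The zinc finger symbols ZNF658, ZNF658B and ZNF717, putative DNA-binding proteins, had 21, 21 and 17 models, with few-exon medians of 39.5%, 34.2% and 12% of the longest model.

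In QSER1 and XYLB most copies aligned to 1 stretch of a sequence, but not of the sequence that the multi-exon model was named from. Whether they hold part of that large gene was therefore not measured. QSER1, a glutamine- and serine-rich protein, has a model of 14 exons and 5796 bp on scaffold 18 at 21421871-21472450. Its 17 copies measured 225 to 746 bp, a median of 7.49%, and all aligned between bases 1255 and 1974 of 1 transcript. In XYLB, xylulokinase, the best model had 19 exons and 1779 bp on scaffold 12 at 27453981-27488321. Its 22 copies, of 609 to 1340 bp, were named from protein sequences that the multi-exon model was not named from, and 18 of them aligned to 1 protein, between residues 356 and 594. CENPE, a mitotic kinesin, had 39 exons and 6384 bp in its longest model and a few-exon median of 10.8%, and IGSF3, an immunoglobulin superfamily protein, had 11 exons, 3915 bp and a median of 14.2%. CYP2C18, a cytochrome P450, had models of 9 and 8 exons on scaffold 11 and 4 few-exon models of 165 to 351 bp.

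DBI, DEK, FDPS and RSL24D1 each had exactly 1 multi-exon model, as did 45 of the 60 housekeeping symbols and 11 of the 30 other symbols. DBI, the acyl-CoA-binding protein, had 8 models on 8 scaffolds, a 4-exon model of 264 bp and 7 copies of 1 exon and 201 to 285 bp, with a median of 100% of the longest. DEK, a chromatin protein, had 10 exons and 1134 bp in its best model and a longest copy of 1112 bp in 1 exon. Of its 10 models 4 lay on scaffolds annotated to under 1 Mb, where 41 of 60 housekeeping symbols had none. FDPS, an enzyme of isoprenoid synthesis, had 8 few-exon models with a median of 48.7%, and RSL24D1, a ribosome biogenesis factor, had 4 with a median of 85.8%. The few-exon median of the housekeeping families was 70.3%. DEK, FDPS and RSL24D1 were named after their values were seen.

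Over all 90 symbols the few-exon models had a median exon length of 495 bp against 874 bp in the multi-exon models. Relative to the longest model of the symbol the median was 49.5%, with a 95% interval of 45.3% to 53.1% from order statistics and quartiles of 32.9% and 79.5%. Of the 1200 few-exon models 224 (18.7%) reached 90% of the longest model and 606 (50.5%) stayed under 50%. The median was 70.3% in the housekeeping families, 75.7% in ribosomal proteins and 39.1% in the other symbols. In 32 of 90 symbols the longest model was itself a few-exon model. In 235 few-exon models with 2 exons the gap between the exons had a median of 398 bp and ranged from 30 to 186140 bp, and 36 gaps were under 100 bp. The 809 gaps in multi-exon models had a median of 861 bp.

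Coverage of the named sequence was measured where a few-exon model and a multi-exon model of its symbol aligned to the same sequence, which held for 1051 of the 1200. The copies covered a median of 80.1% of the widest interval of such a multi-exon model, with quartiles of 43.8% and 99.3%, and 427 (40.6%) covered at least 90%. Allowing 10% at either end, 436 (41.5%) held both ends, 295 (28.1%) lacked the 5′ end only, 223 (21.2%) lacked the 3′ end only and 97 (9.23%) lacked both. In ribosomal proteins, 182 of 292 (62.3%) held both ends, 57 (19.5%) lacked the 5′ end only and 36 (12.3%) the 3′ end only. In the housekeeping families together these shares were 53.7%, 23.1% and 14.6% of 445 models, and in the other symbols 32.5%, 31.7% and 26.1% of 606. COX1 gave 79 of these 606. A lacking end can also be the edge of a scaffold, and such models were not separated. COX1_copy3, which lacked 28.8% at the 5′ end, began at base 3 of its scaffold.

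Exon lengths bear on whether a model can hold an unbroken reading frame only where the exons are wholly coding, which was not checked. The length was a multiple of 3 in 741 of the 1200 few-exon models (61.8%), in 77.2% of the few-exon models of all other symbols and in 87.8% of all models. In the few-exon models of the 136 left-out symbols with 5 or more models it was 77.8%. The remainder was 1 base in 222 and 2 bases in 237. In the same 90 symbols, 160 of 199 multi-exon models (80.4%) had a multiple of 3. Ribosomal protein copies had 211 of 339 (62.2%) against 34 of 37 (91.9%) in their multi-exon models, and the housekeeping families 316 of 529 (59.7%) against 74 of 81 (91.4%). In FTH1 1 of 7 few-exon models had such a length, in RPL27 2 of 8, and in RPS29 and DBI all 7 of 7. RPL27 was named after its values were seen. Copies of at least 90% of the longest model had 127 of 224 (56.7%), and those under 50% had 401 of 606 (66.2%).

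The annotation source differed between the kinds of model, and its part in this measure was not tested beyond the following. Of the few-exon models 1051 (87.6%) carried the source exonerate, an aligner that places a transcript or protein on a genome, against 25.5% of all models. Of the multi-exon models 131 (65.8%) carried the source EVM, which combines several lines of evidence. Among 1-exon exonerate models only, 551 of 912 (60.4%) of the kept symbols and 2770 of 3808 (72.7%) of the other symbols had a length that was a multiple of 3.

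Alignment scores were set per aligned base for models named from a transcript. In the housekeeping families the median was 1.24 in 529 few-exon models and 1.42 in 80 multi-exon models, and 462 of 529 copies lay below the best multi-exon model of their symbol. In 53 of 60 symbols the median copy lay below that model. In ribosomal proteins the medians were 1.31 and 1.44. In the other symbols they were 0.796 in 432 few-exon models and 0.702 in 107 multi-exon models. Within symbols, 363 of 431 of these copies (84.2%) lay below the best multi-exon model of their symbol. Exactly 1 model was multi-exon in 11 of the 30 other symbols and in 45 of the 60 housekeeping symbols. Elsewhere the best is the highest of several models and lies above most single models by its choice. The counts below the best model therefore do not rank the 2 kinds of model in such symbols. By total score, a few-exon model was the best of its symbol in 41 of 90 symbols, among them RPL21, ACTB, FTH1, HMGB1, TPT1 and MRPL42. A total score is not divided by aligned length. Per aligned base the few-exon median was below the best multi-exon model in RPL21 (1.46 and 1.6), ACTB (0.837 and 1.46) and FTH1 (1.46 and 1.49). The same held in HMGB1 (1.39 and 1.54) and MRPL42 (1.32 and 1.49), and TPT1 went the other way (1.5 and 1.28). No source used here gives the scale of the score, and it is used only to rank models within a symbol or to compare them per base.

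**Figure D4:**
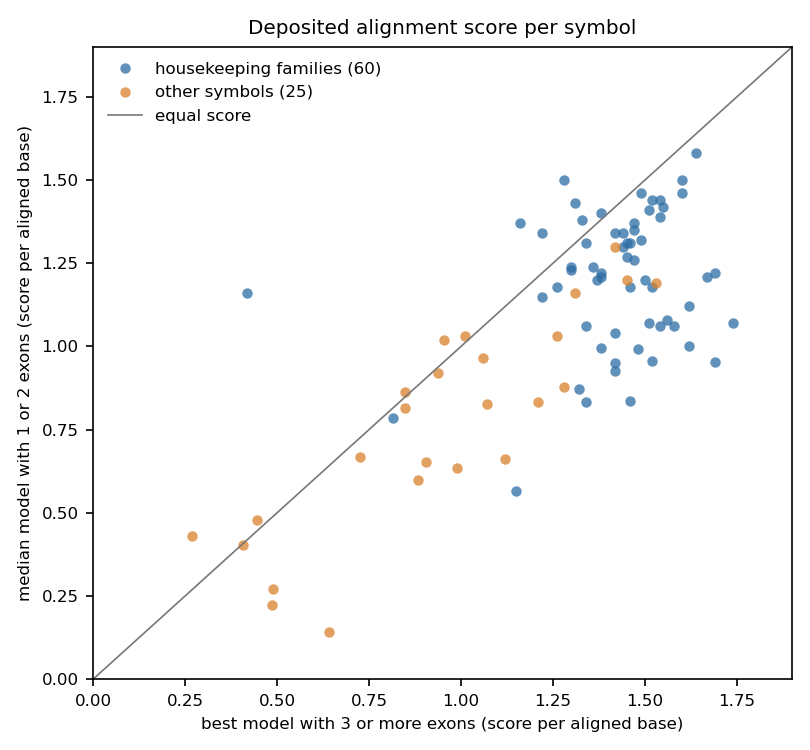
Deposited alignment score per aligned base for each symbol with transcript-named models: the best model with 3 or more exons (horizontal axis) against the median of the models with 1 or 2 exons (vertical axis), for 60 housekeeping symbols (blue) and 25 other symbols (orange). In 53 of the 60 and 20 of the 25 the point lies below the line of equal score. Where a symbol has several multi-exon models, the highest of them is set against a median, which favours a point below the line.

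Of the few-exon models 103 of 1200 (8.58%) lay wholly inside another gene model, beside 5.33% of the few-exon models of other symbols and 2.74% of all models. In the left-out symbols with 5 or more models it was 3.67%. In the multi-exon models it was 3 of 199 (1.51%). Ribosomal protein copies had 61 of 339 (18%), the housekeeping families 80 of 529 (15.1%) and the other symbols 23 of 671 (3.43%). Of these few-exon models, 5.29% in the housekeeping families and 70.3% in the other symbols lay on small scaffolds, as defined below. The nested shares of these groups were not separated by scaffold size, so its part in the difference was not tested. The 103 copies came from 48 symbols and lay in 99 differently named host genes, and 101 of them overlapped no exon of the host. All 103 lay on the strand opposite to the host. The annotation holds no pair of models that overlap on the same strand, among 639 nested models in all, so copies on the host's own strand could not be counted and the shares cover models on opposite strands only.

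Examples were spread over many kinds of host. RPL37A on scaffold 3 at 4447552-4447827, a 1-exon model of 276 bp with the best score of its symbol, lay in an intron of DCC, a netrin receptor. RPL31_copy4 on scaffold 14 at 39398790-39399168, of 379 bp, lay in NRP1, a semaphorin receptor, and RPL17_copy13 lay in the transcription factor gene PAX3. HSPD1_copy6, at 32165580-32167282 on scaffold 19, held 98.9% of the length of the longest HSPD1 model inside ANKS1B. HMGB1 lay in RFWD2, FTH1_copy7 in HIBADH and RPS15A_copy6 in RANBP17. RPL21 had 6 copies in other genes, among them STIL, AEBP2 and KCNK10, and RPS24 had 7. Of the 103 nested copies 39 (37.9%) reached 90% of the longest model. These examples were named after their values were seen.

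The distance to the nearest model of the symbol was not part of the rule, although the spread over scaffolds bears on it. Models on different scaffolds never count as near, and 500 of the 1200 few-exon models lay on scaffolds annotated to under 1 Mb. For those 500 the measure asks only whether the scaffold holds another model of the symbol. No other model of the symbol lay within 1 Mb for 1011 of the 1200 few-exon models (84.2%), a share near the 84.8% of all models and the 81.7% of the few-exon models of other symbols. Those 2 shares include symbols with 1 model, which have no other model to lie near. Among 1-exon exonerate models it was 88.5% in the kept symbols and 88% in the others. It was 56.2% for the few-exon models of the 136 symbols with 5 or more models that were left out, of which 99 failed on scaffolds. The share was 95.9% in ribosomal proteins, 94% in the housekeeping families and 76.6% in the other symbols. In 26 symbols, 156 models did have a neighbour of the same symbol within 10 kb. Among these, 32 adjacent pairs in 15 symbols lay on the same strand and had aligned intervals that overlapped little or not at all. Whether both models of a pair were named from the same sequence, and the order of the pieces, were not checked over all pairs. HSPD1_copy10 (scaffold 16, 16741619-16743001) aligned to bases 154 to 744 and HSPD1_copy8 (16743012-16744054) to bases 764 to 1811 of the same transcript. Such pairs count as 2 models each, and the number of separate copies in the genome was not determined.

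The housekeeping families and the other symbols lay on scaffolds of different size. The last annotated base lay before 1 Mb, which is called a small scaffold here, for 565 of the 1399 models (40.4%) and for 12.5% of all models. Among few-exon models it was 41.7% in the kept symbols, near the 44.7% in the left-out symbols with 5 or more models, and among 1-exon exonerate models it was 40.1% in the kept symbols and 42.2% in the others. Within the kept few-exon models it was 28 of 529 (5.29%) in the housekeeping families and 472 of 671 (70.3%) in the other symbols. In 41 of 60 housekeeping symbols no model lay on a small scaffold, and in none did more than 50% do so, while 19 of the 30 other symbols passed 50%. COX1 had 79 of its 80 models there, LOC105379528 had 65 of 66, TRIM38 had 57 of 63 and PTCHD3 had 27 of 28. RPL21 had 6 of 33, RPL9 1 of 31 and RPL17 none of 21. Whether small scaffolds repeat sequence that also lies on a large one was not tested over the assembly. Within the kept symbols, 83 models of 21 symbols fell into 37 groups with the same exon lengths, score and aligned interval, and 45 of the 83 lay on small scaffolds. RPL7_copy4 on scaffold 44 (2395822-2396539) and RPL7_copy5 on scaffold 5934 (420-1137) were such a pair, each of 718 bp with a score of 580. With scaffolds under 1 Mb left out, 68 symbols with 736 models remained, all of them among the 90, and 15% of their few-exon models lay inside another model.

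**Figure D5:**
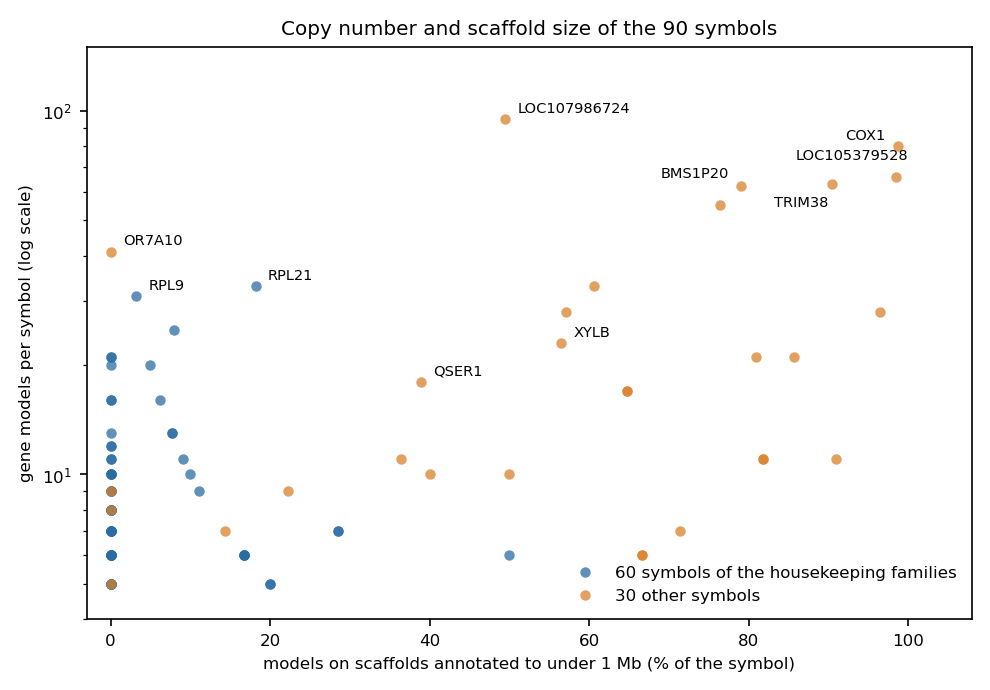
Number of gene models per symbol (vertical axis, log scale) against the percentage of them on scaffolds whose last annotated base lies before 1 Mb (horizontal axis), for the 60 housekeeping symbols (blue) and the 30 other symbols (orange). The housekeeping symbols lie at the left, none above 50%, and COX1, LOC105379528 and TRIM38 lie at the far right.

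Strand could be read for models named from transcripts only. Of 961 few-exon models named from transcripts, 469 (48.8%) lay on the plus strand. Of 239 named from proteins, 237 (99.2%) were written on the plus strand, and over the whole annotation the share for such models was 96.7% of 911. COX1, LOC107983994, LOC107984745, most of LOC107986724 and the XYLB copies belong to these, so their strand and their nesting, which needs the strand, are uncertain. Without them, 91 of 961 few-exon models (9.47%) lay inside another model.

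RefSeq's gene table for the mole assembly MPIMG_talOcc4v2.1 was used for names only. A protein-coding gene of the same symbol was listed for 57 of the 90 symbols (63.3%) and for none of the rest by synonym. The 33 without a match include 5 LOC symbols, OR7A10, OR14A16, TRIM38, the older names H3F3A, ATP5L and ATP5F1, and also RPL21, RPL17, RPS24, RPL37A and HSPD1. A missing match here says only that the table does not list that name for a protein-coding gene.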

How the data were processed

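ATAC-seq was performed on 6 samples, and the chromatin segmentations deposited for them were not used here. Per the submitters' processing notes, STAR 2.6.1d and mm9 (mouse) are listed, with no step named. The deposited annotation on talOcc3 gives the start and end of gene, transcript, exon and coding rows, and a score per model. The annotation pipeline and the scale of the score are not given in the sources here. It carries no depth and no replicates, so no test was run and no spread between samples exists. Per the file headers and sources, models come from exonerate, EVM or ALN. Exon rows equal coding rows, so lengths are those of the exons as annotated, and whether these are wholly coding was not checked. The 70 IDs that stand on 2 gene rows were resolved by position, and 1637 unnamed models stayed in the totals.

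Exons were summed per model, and each model was set against the longest model of its symbol and, by aligned interval, against the multi-exon model with the widest interval on the same sequence. A target was taken as a protein where exon bases exceeded aligned units by over 2 times. Medians carry 95% order-statistic intervals and shares 95% Wilson intervals, which cover counting error only. Intervals over models take the models of 1 symbol as independent, which they are not. Scripts used Python 3.11.15, pandas 2.3.3, numpy 2.4.6, scipy 1.17.1 and matplotlib 3.10.9, and were tested on simulated data.

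Members, families and measures were chosen with earlier results of these data known. Named symbols are the 15 with the most models, the 3 with the most per family, those beside each limit, and the 5 with the longest and the 5 with the shortest copies. Other symbols were named after their values were seen. Alternatives covered the limits of the choice, exon counting, short models, small scaffolds, identical models, symbols with over 40 models, the length reference and distance. The last annotated base stands in for scaffold length. No sequence is printed, since none was used.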

Additional observations from a re-analysis of the deposited data

How the results depend on the processing

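No paired analysis was possible because the annotation carries no samples. Of 81 values recomputed under alternatives, 56 stayed within their interval or within 1.5 times and 25 moved, and the cause was not tested. With 3 models on 3 scaffolds, 245 symbols were kept, with 4 models in the median, 80.9% few-exon models and a median length of 53.2%. With 10 models on 10 scaffolds, 38 were kept, with 19 models, 88.5% and 43.7%. With few-exon meaning 1 exon, 79.4% were few-exon, 10.3% lay inside another model and 91.9% had no model of the symbol within 1 Mb. With 1 to 3 exons, the first was 88.6% and the last 79.6%, and with at least 75% few-exon models they were 90% and 88.1%. Without scaffolds ending before 1 Mb, 736 models were kept, the median length was 69.3%, 15% lay inside another model and 88% had none near. Without symbols of over 40 models, an alternative added after seeing the data, these were 57%, 11.9% and 92%. Against the model with the most exons the median length was 59.3%, and by span from start to end it was 4.79%. Inside a model on the same strand lay 0%, as the annotation holds no such overlap. Counting from coding rows or joining exons under 30 bp apart changed no symbol, and counting identical models as 1, also added later, kept 89. The RefSeq protein length as reference was not run. With 1 annotation and no sequence, the limits are that split models, repeated scaffolds and near-identical paralogs enter the counts.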
